A study of Mus musculus with 9 samples.

Results

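Krüppel-like factors (KLF) and early growth response factors (EGR) are zinc-finger transcription factors. The 9 genes described here were chosen by name from these 2 families: Klf2, Klf3, Klf4, Klf6, Klf7, Klf10, Klf13, Egr1 and Egr2. All 9 were found among the 22001 genes of the count table, and all 9 had enough counts to be among the 11469 genes tested. They were measured by RNA sequencing of cultured macrophages, the phagocytes that C57BL6 mouse bone marrow gives rise to in a dish. There were 3 groups of 3 libraries, all collected after 6 h. Libraries A2, B2 and C2 are labelled untreated, with PBS, and libraries D1, D2 and D3 are labelled Pam3CSK4 at 100 µg/ml. Libraries A2plus, B2plus and C2plus are labelled with the same dose of Pam3CSK4 plus 3SL at 100 µl/ml. Pam3CSK4 is a synthetic lipopeptide sensed by Toll-like receptors. From the series title 3SL is 3'-sialyllactose, a milk oligosaccharide, whose amount the labels give only as a volume. The titles and treatment tag of the last group use other abbreviations (Pamc4 and Pamc4-CSL), and the descriptions were followed. These are cultured cells of 1 strain, and separate cultures or animals per library are not stated. P-values therefore cover only how far these libraries differ from each other, and that spread may be technical.

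KLF proteins bind GC-rich and CACCC-type sequences through a conserved zinc-finger domain and recruit co-activators or co-repressors through their other domains. In macrophages Klf2 and Klf4 are known for restraining inflammatory genes, and Klf6 for promoting them. EGR genes are immediate-early genes: growth factor and receptor signals switch them on within minutes through serum response factor and its ETS partners, and NAB proteins hold the activity of their products in check.

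Inflammatory genes ran against the labels. The cytokine gene Il1b stood at 10160 ± 457 CPM (counts scaled to a common library size; SD, n = 3) in the untreated-labelled, 6.23 ± 1.68 in the Pam3CSK4-labelled and 8136 ± 565 in the 3SL-labelled libraries. Tnf, which encodes another inflammatory cytokine, stood at 1704 ± 46.0, 18.4 ± 0.670 and 1267 ± 58.2 CPM. Of 14 such response genes tested, 13 were called lower and 1 higher in the Pam3CSK4-labelled than in the untreated-labelled libraries. With libraries scaled by their totals alone the counts were 12 and 2. Among all tested genes 75.0% were called in this comparison, 35.9% lower and 39.0% higher. At least a 2-fold change was called for 11 of the 14 and for 24.0% of all tested genes. Every direction below therefore rests on the labels as given, and the groups are called by their labels. Total counts ran from 7472482 to 43980309 per library, at which 3 counts amount to 0.0746 to 0.422 CPM (counting error only). Principal component 1 held 90.4% of the variance in the 9 libraries. Library letters differ too: D marks all Pam3CSK4-labelled libraries and no other, so letter and label cannot be told apart. Summed macrophage markers (10 genes, all detected) ran from 25787 to 26364 CPM in the untreated-labelled, 18033 to 18468 in the Pam3CSK4-labelled and 24865 to 25602 in the 3SL-labelled libraries. Neutrophil and progenitor markers (11 genes, none at 0 in a whole group) ran from 691 to 719, 451 to 575 and 562 to 616 CPM, and dendritic markers (6 genes) from 7.53 to 9.32, 0.800 to 3.27 and 6.04 to 7.15. Stromal and endothelial markers (7 genes) ran from 15.7 to 17.7, 4.88 to 5.36 and 12.2 to 15.1 CPM in the same order of groups. B and T cell markers (8 genes) reached at most 2.36 CPM in sum, with up to 1 gene at 0 in a group. Erythroid and mast cell markers (7 genes) ran from 3.21 to 3.93, 4.48 to 5.58 and 2.25 to 3.51 CPM, with up to 2 genes at 0 in a group. These sums rest on a few genes, and single markers went both ways. Between the untreated-labelled and Pam3CSK4-labelled libraries the mean was higher in the latter for 4 of the 10 macrophage markers, among them Cd68 (1026 and 1413 CPM) and Mertk (48.4 and 96.2 CPM), while Adgre1 stood at 4300 and 1296 CPM and Cd14, also a response gene, at 2260 and 213 CPM. The same held for 6 of the 11 neutrophil and progenitor markers, among them Mpo (18.9 and 40.2 CPM) and Elane (5.82 and 12.6 CPM), for 1 of the 6 dendritic and for 2 of the 7 stromal and endothelial ones. It also held for 3 of the 8 B and T cell and 5 of the 7 erythroid and mast cell markers. Pdgfrb (10.3 and 1.12 CPM) made up most of the stromal and endothelial sum in the untreated-labelled libraries, and Ccr7 (3.98 and 0.159 CPM) was the highest dendritic marker there. These markers were named after their values were seen. The part of other cells in the values below was not tested, and in bulk samples fewer cells of a type and less RNA per cell cannot be told apart.

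The promoters of 3 members are shown because each holds, in letters, a site of a pathway whose genes are described further on. The windows come from RefSeq on the mouse build GRCm38.p6, run 5′ to 3′ on the strand of the gene and end before the annotated start or UTR. Capitals mark a MEF2 site in Klf2 (chr8:72318812-72319032, + strand), a pair of EGR sites in Klf4 (chr4:55532476-55532725, - strand) and a serum response element, the CArG box, in Egr2 (chr10:67537619-67537868, + strand).
Klf2: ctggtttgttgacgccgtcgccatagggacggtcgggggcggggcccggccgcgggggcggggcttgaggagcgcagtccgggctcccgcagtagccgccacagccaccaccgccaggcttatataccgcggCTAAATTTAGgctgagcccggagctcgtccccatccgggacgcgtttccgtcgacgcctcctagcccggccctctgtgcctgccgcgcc
Klf4: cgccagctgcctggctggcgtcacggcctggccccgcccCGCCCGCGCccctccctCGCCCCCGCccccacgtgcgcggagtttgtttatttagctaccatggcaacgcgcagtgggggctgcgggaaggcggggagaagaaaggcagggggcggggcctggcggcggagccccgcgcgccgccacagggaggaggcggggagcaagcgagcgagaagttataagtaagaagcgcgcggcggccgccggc
Egr2: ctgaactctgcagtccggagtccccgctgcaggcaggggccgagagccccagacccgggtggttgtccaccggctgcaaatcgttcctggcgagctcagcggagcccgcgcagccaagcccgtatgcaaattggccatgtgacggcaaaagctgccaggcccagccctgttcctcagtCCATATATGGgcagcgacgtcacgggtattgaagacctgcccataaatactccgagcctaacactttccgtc
The MEF2 site, searched by name on both strands, began 118 bases before the start of Klf2 and overlapped none of the other searched motifs. It occurred in 0.508% of the 32851 windows of 250 bases before annotated starts. No window of another member, that of Klf4 included, held a MEF2 site. The EGR sites of Klf4, with the letters GCGNGGGCG read on either strand, began 211 and 194 bases before the start, and each overlapped a GC box (GGGCGG). That motif occurred in 4.70% of all windows, and among the members also in those of Klf3 (3 matches) and Klf2 (1 match). The CArG box, searched by name, lay 72 bases before this start of Egr2 and occurred in 1.47% of all windows. A further Egr2 start, at position 67537566, also had a CArG box 72 bases before it. The window before the Egr2 start at position 67535499 held none. RefSeq windows were matched for 7 of the 9 members, 11 windows in all. These matches describe letters in a window and say nothing on whether a factor bound there.

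Base composition varied among the windows, and the ranges of the KLF genes and of Egr2 overlapped. The window of Klf3 had 78.4% GC and 23 CpG dinucleotides, that of Klf4 74% and 32, that of Klf13 71.6% and 24, that of Klf2 71.2% and 29, that of Klf6 64.8% and 21, and that of Klf7 59.2% and 13. The 5 Egr2 windows ranged from 54% to 71.2% GC and from 15 to 26 CpG dinucleotides. Those before the starts at 67537869, 67537870 and 67537930 largely share the same bases. Over all windows the medians were 52.4% and 6, so the lowest Egr2 window was close to the median GC. The KLF box CACCC, searched on both strands, occurred in 52.0% of all windows. Among the members it was found in the windows of Klf3 (5 matches), Klf7 (3 matches), Klf2, Klf13 and 2 of the Egr2 starts.

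The first comparison sets the Pam3CSK4-labelled against the untreated-labelled libraries. Of the 9 members, 3 were called higher in the Pam3CSK4-labelled than in the untreated-labelled libraries (Klf2, Klf4 and Klf10) and 6 lower (Klf3, Klf6, Klf7, Klf13, Egr1 and Egr2), in the quasi-likelihood test of edgeR with p-values adjusted over all tested genes (Benjamini-Hochberg). Among all 11469 tested genes, 75.0% were called in this comparison, 39.0% higher and 35.9% lower, and a call by itself says little about a gene here. By size, 6 of the 9 members were called with at least a 2-fold change, against 24.0% of all tested genes. The median absolute log2 change was 1.51 over the members and 0.45 over all tested genes. The members were chosen with earlier results of these data known, so this difference is no independent result on their families. Of the 4 other KLF genes tested, 1 was called with at least a 2-fold change. With libraries scaled by their totals alone, the calls over all genes split into 6882 higher and 2380 lower, in place of 4474 and 4123, because the median gene then moved by 0.34 on the log2 scale. Under that scaling 3 members were called higher and 5 lower.

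**Figure D1:**
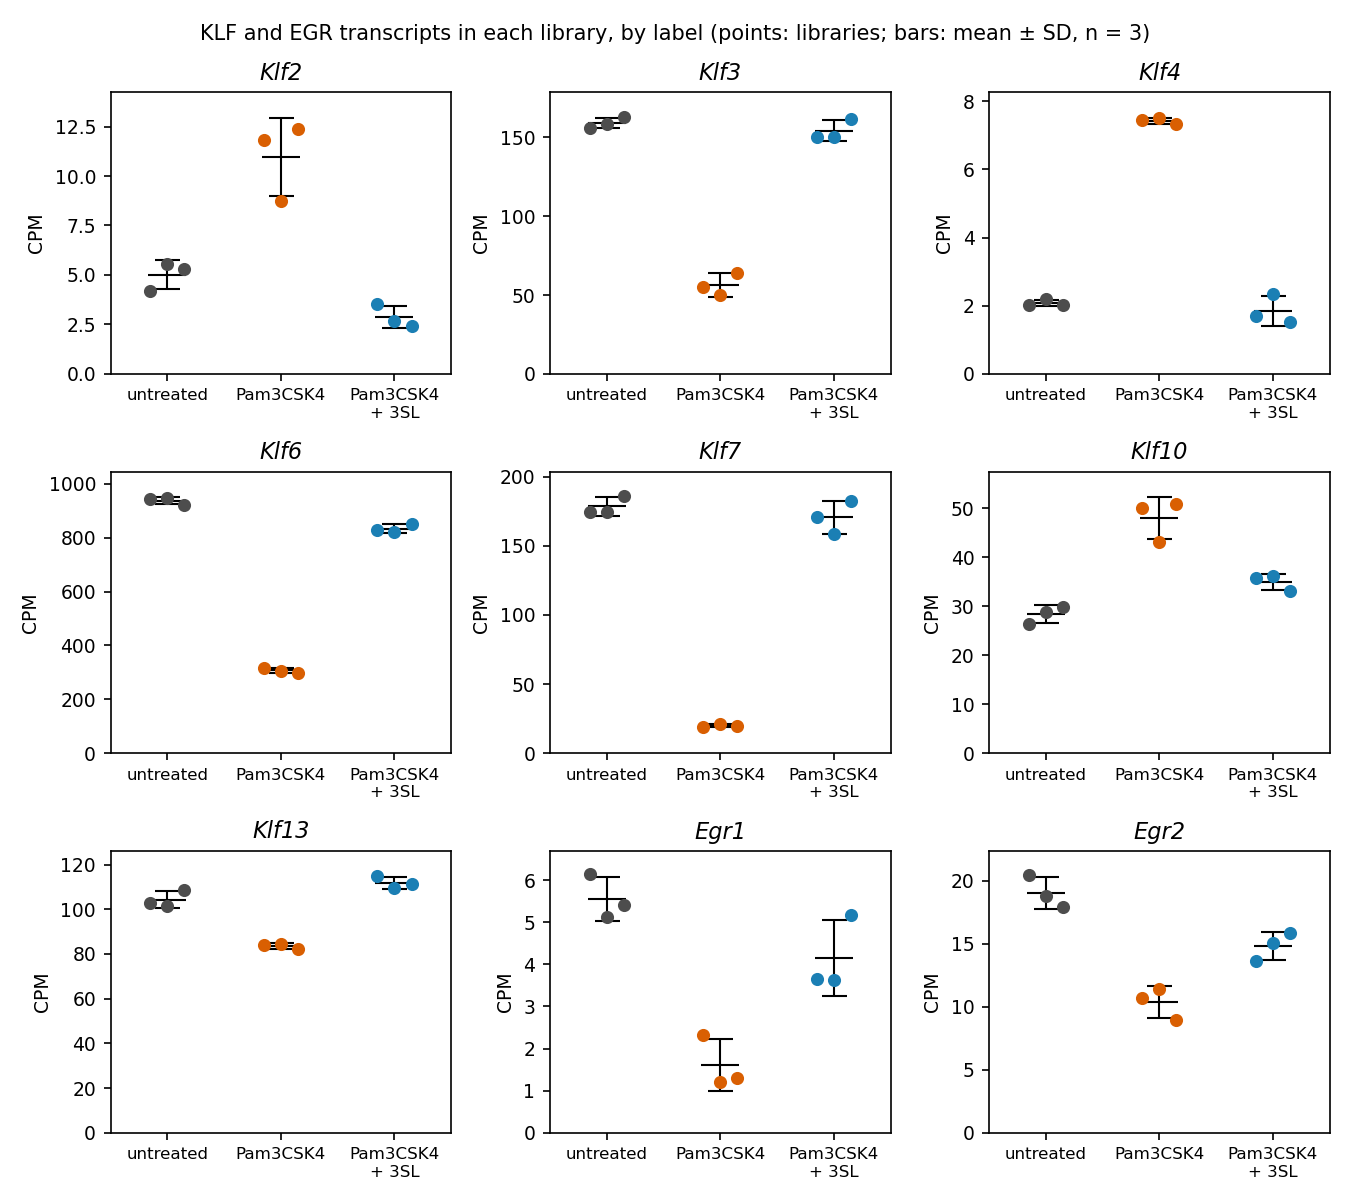
Level of each member in CPM (vertical axis, starting at 0) in the 3 libraries of each labelled group (points), with the mean and SD (bars, n = 3). The Pam3CSK4-labelled means lie above those of both other groups for Klf2, Klf4 and Klf10 and below them for the other 6. For Klf13 this rests on the scaling of the libraries. Of all tested genes, 75.0% were called between the Pam3CSK4-labelled and untreated-labelled libraries.

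Klf7, a factor best known from neurons and fat cells, had the largest change of the members. Its level was 175, 174 and 186 CPM in A2, B2 and C2 and 19.2, 21.3 and 19.6 CPM in D1, D2 and D3. The groups lay far apart and each was tight. The fall was 8.83-fold (log2 change -3.14 ± 0.058 SE, edgeR quasi-likelihood adjusted p = 2.39e-26), and only 3.52% of all tested genes changed as much in either direction. On the opposite strand Klf7 shares 3196 exon bases with the non-coding gene Gm26649, which has no row in the count table.

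Klf6, an injury- and cytokine-responsive factor that promotes inflammatory gene expression in macrophages, was the most abundant member per length of exon in each group. It stood at 944, 946 and 922 CPM in A2, B2 and C2 and at 318, 306 and 299 CPM in D1, D2 and D3, with no overlap. The fall was 3.05-fold (log2 change -1.61 ± 0.032 SE, edgeR quasi-likelihood adjusted p = 1.02e-25). Klf3, a repressor that recruits the co-repressor CtBP, stood at 156, 159 and 163 CPM in the untreated-labelled and at 55.0, 49.8 and 64.3 CPM in the Pam3CSK4-labelled libraries. Again the groups were far apart, a fall of 2.84-fold (log2 change -1.51 ± 0.058 SE, edgeR quasi-likelihood adjusted p = 5.54e-19). Klf3 shares 404 exon bases with Gm20033 on the other strand. Whether the counting used strand was not given in the sources used here, so reads of such partners cannot be told apart.

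Klf13, which acts on the chemokine gene Ccl5 in T cells, had the smallest change. It stood at 103, 102 and 109 CPM in the untreated-labelled and 84.0, 84.4 and 82.3 CPM in the Pam3CSK4-labelled libraries. The groups did not overlap, and the fall was 1.24-fold (log2 change -0.31 ± 0.043 SE, edgeR quasi-likelihood adjusted p = 2.31e-07), a size reached by 61.9% of all tested genes. With libraries scaled by their totals alone the change was 0.00 (adjusted p = 0.994), so the direction of Klf13 rests on the scaling.

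The 3 members that were higher in the Pam3CSK4-labelled libraries include both factors known for restraining macrophage inflammation. Klf4, which also drives monocyte differentiation, stood at 2.03, 2.19 and 2.01 CPM in A2, B2 and C2 and at 7.44, 7.52 and 7.34 CPM in D1, D2 and D3. Those low levels rest on 139 and 320 counts per group. The SD was 4.63% and 1.23% of the mean, less than the scatter that counting alone gives at such counts. The closeness of these libraries is therefore no measure of precision. Klf4 rose 3.51-fold (log2 change 1.81 ± 0.17 SE, edgeR quasi-likelihood adjusted p = 1.32e-10). Klf2, a factor of quiescence in T cells, endothelium and myeloid cells, stood at 4.18, 5.57 and 5.30 CPM against 11.8, 8.72 and 12.4 CPM. D2 was the lowest of the Pam3CSK4-labelled libraries and still above every untreated-labelled one, and Klf2 rose 2.12-fold (log2 change 1.08 ± 0.15 SE, edgeR quasi-likelihood adjusted p = 1.71e-07). Klf10, a repressor induced early by transforming growth factor beta, stood at 26.3, 28.9 and 29.9 CPM against 50.01, 43.1 and 50.9 CPM. Its groups did not overlap either, and it rose 1.69-fold (log2 change 0.75 ± 0.071 SE, edgeR quasi-likelihood adjusted p = 1.99e-10).

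Both EGR genes were lower in the Pam3CSK4-labelled libraries. Egr1, the best-known immediate-early factor of the family, stood at 6.14, 5.12 and 5.41 CPM in A2, B2 and C2 and at 2.32, 1.21 and 1.30 CPM in D1, D2 and D3. D1 was the highest of its group and still below every untreated-labelled library; the whole Pam3CSK4-labelled group held 67 counts. Egr1 fell 3.49-fold (log2 change -1.81 ± 0.22 SE, edgeR quasi-likelihood adjusted p = 2.78e-08). Egr2, which also takes part in alternative macrophage activation, stood at 20.5, 18.8 and 17.9 CPM against 10.7, 11.4 and 8.94 CPM. The groups were apart, and Egr2 fell 1.83-fold (log2 change -0.87 ± 0.096 SE, edgeR quasi-likelihood adjusted p = 5.13e-09), or by 0.56 on the log2 scale with libraries scaled by their totals alone.

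**Figure D2:**
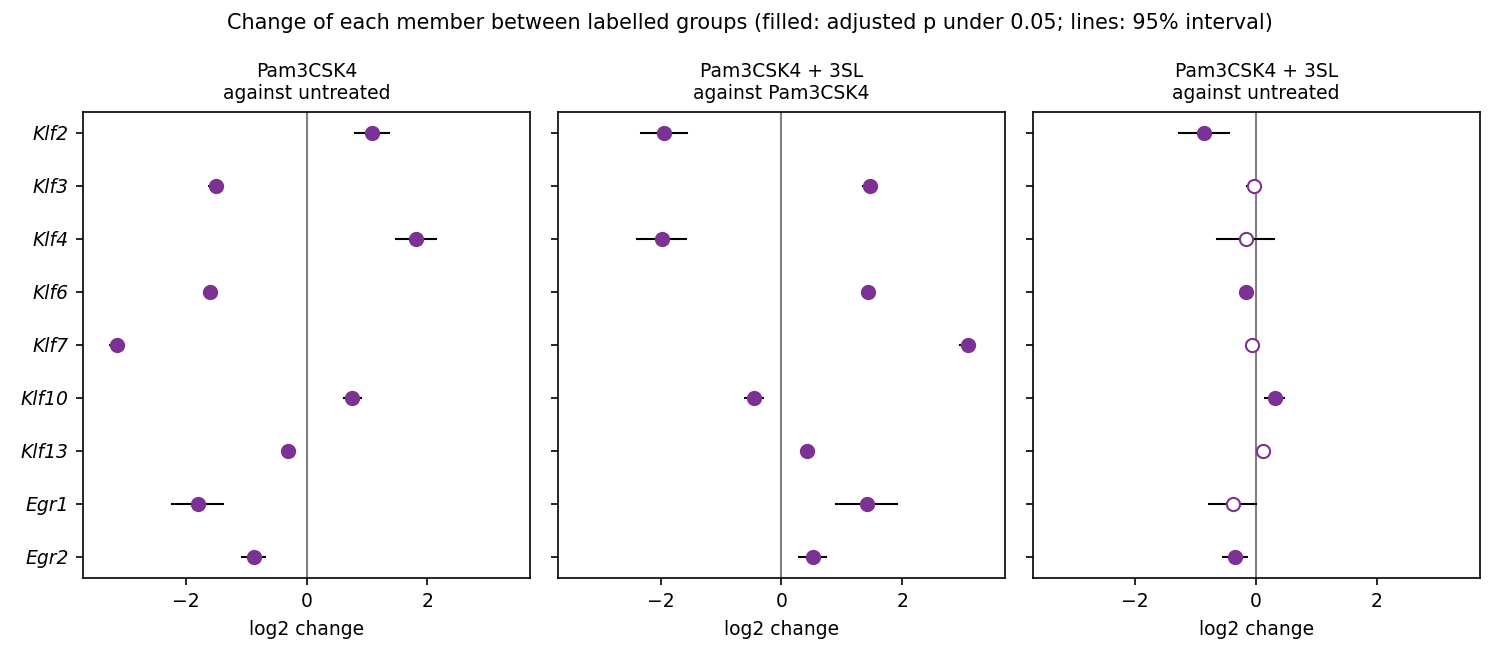
Log2 change of each member (horizontal axis) in the 3 comparisons, with lines for the 95% interval (± 1.96 SE) and filled points for an adjusted p under 0.05. In the left and middle panels all 9 points are filled, from -3.14 to 1.81 and from -1.98 to 3.08, and in the right panel 4 are filled and all 9 lie between -0.87 and 0.30.

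The second comparison sets the 3SL-labelled against the Pam3CSK4-labelled libraries. It shares the Pam3CSK4-labelled libraries with the first, so the signs of both hang on those 3 libraries and their likeness is no separate result. Of the 9 members, 6 were called higher in the 3SL-labelled libraries (Klf3, Klf6, Klf7, Klf13, Egr1 and Egr2) and 3 lower (Klf2, Klf4 and Klf10). Among all tested genes 71.5% were called, 34.7% higher and 36.8% lower, and with libraries scaled by their totals alone the split was 2434 higher and 6393 lower in place of 3978 and 4226. A change of at least 2-fold was called for 6 members and for 23.0% of all tested genes, and the median absolute log2 change was 1.44 over the members and 0.44 over all.

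Among the members that were higher, Klf7 stood at 171, 159 and 182 CPM in A2plus, B2plus and C2plus. That was 8.47-fold above the Pam3CSK4-labelled libraries (log2 change 3.08 ± 0.061 SE, edgeR quasi-likelihood adjusted p = 1.12e-25). Klf6 stood at 829, 820 and 852 CPM, 2.71-fold higher (log2 change 1.44 ± 0.032 SE, adjusted p = 2.08e-24). All 3 of these libraries lay far above the highest Pam3CSK4-labelled one. Klf3 stood at 150, 151 and 162 CPM and was 2.76-fold higher (log2 change 1.46 ± 0.061 SE, adjusted p = 4.09e-18). Klf13 stood at 115, 110 and 112 CPM and was 1.34-fold higher (log2 change 0.42 ± 0.045 SE, adjusted p = 3.72e-09), with a log2 change of 0.15 (adjusted p = 0.00582) when libraries were scaled by their totals alone. Klf13 and Egr2 were the members whose rise was smallest here.

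Egr1 stood at 3.65, 3.62 and 5.18 CPM and was 2.67-fold higher than in the Pam3CSK4-labelled libraries (log2 change 1.42 ± 0.26 SE, edgeR quasi-likelihood adjusted p = 2.09e-05). C2plus was the highest of its group, and no library of the group reached down to the level of D1. Egr2 stood at 13.6, 15.1 and 15.9 CPM and was 1.43-fold higher (log2 change 0.52 ± 0.11 SE, adjusted p = 0.000192), with 0.25 (adjusted p = 0.0494) under library totals alone.

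The members that were lower in the 3SL-labelled libraries were Klf4, Klf2 and Klf10. Klf4 stood at 1.69, 2.35 and 1.52 CPM, from 51 counts in all, and was 3.95-fold lower (log2 change -1.98 ± 0.20 SE, edgeR quasi-likelihood adjusted p = 1.58e-09). Klf2 stood at 3.51, 2.64 and 2.44 CPM, from 76 counts in all, and was 3.86-fold lower (log2 change -1.95 ± 0.19 SE, adjusted p = 8.74e-10). All of these libraries lay well below the lowest Pam3CSK4-labelled one for both genes. Klf10 stood at 35.7, 36.2 and 33.1 CPM and was 1.37-fold lower (log2 change -0.45 ± 0.076 SE, adjusted p = 7.52e-06), with -0.72 under library totals alone.

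The third comparison asks how cells with both agents differed from untreated ones. Between the 3SL-labelled and untreated-labelled libraries 1 member was called higher (Klf10) and 3 lower (Klf2, Klf6 and Egr2), and 0 were called with a 2-fold change, by edgeR, by DESeq2 or at an unadjusted p under 0.05. Of all tested genes 8.94% were called, 3.83% higher and 5.11% lower, and 0.174% were called with at least a 2-fold change. The median absolute log2 change was 0.17 over the members and 0.09 over all tested genes.

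Klf2 had the largest of these changes. Its 3SL-labelled libraries (3.51, 2.64 and 2.44 CPM) all lay below the lowest untreated-labelled one (4.18 CPM in A2). The difference was 1.82-fold (log2 change -0.87 ± 0.21 SE, edgeR quasi-likelihood adjusted p = 0.00784), and 1.06% of all tested genes changed as much. The call was lost without library B2, the deepest one, at a log2 change of -0.72 (adjusted p = 0.0952), and without A2plus the change was -1.01 (adjusted p = 0.00974), past 2-fold. Klf6 was lower by 1.12-fold (log2 change -0.17 ± 0.031 SE, adjusted p = 0.000375), with 829, 820 and 852 CPM against 944, 946 and 922 CPM. That difference, although small, separated all libraries of both groups and was called under every alternative.

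Klf10 was 1.24-fold higher in the 3SL-labelled libraries (log2 change 0.30 ± 0.079 SE, edgeR quasi-likelihood adjusted p = 0.0118), with every library above the untreated-labelled ones. Klf10 thus stood in the order untreated-labelled, 3SL-labelled, Pam3CSK4-labelled with no overlap between neighbours. Its call in this comparison was lost without A2 (adjusted p = 0.056) or without B2plus (adjusted p = 0.0691). Egr2 was 1.28-fold lower (log2 change -0.35 ± 0.099 SE, adjusted p = 0.022) and likewise had its 3 groups apart, with the 3SL-labelled libraries in the middle. The Egr2 call was lost with DESeq2 (adjusted p = 0.057) and without A2, B2, A2plus or B2plus, at adjusted p-values of 0.0985, 0.0599, 0.117 and 0.0629.

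The other 5 members were not called between the 3SL-labelled and the untreated-labelled libraries. The log2 change was -0.04 for Klf3 (interval -0.15 to 0.06, adjusted p = 0.716) and -0.06 for Klf7 (-0.15 to 0.03, adjusted p = 0.492), by edgeR's quasi-likelihood test. Any difference larger than about 0.15 lies outside these intervals. For Klf4 and Egr1 the intervals were wider and the counts low. Klf4 had a log2 change of -0.17 (-0.65 to 0.30, adjusted p = 0.75) and Egr1 of -0.39 (-0.78 to 0.00, adjusted p = 0.265), and the groups of both overlapped. Klf13 had a log2 change of 0.11 (0.02 to 0.19, adjusted p = 0.139); its groups did not overlap, and with libraries scaled by their totals alone it was called higher, at 0.15 (adjusted p = 0.0338).

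Levels of different genes were compared as CPM per kilobase of exon. The length used was that of all annotated exons of a gene, over every annotated transcript. It was 11243 bases for Klf3 (9 transcripts), 8131 for Klf7 (3 transcripts) and 1847 for Klf2 (1 transcript). Which transcripts the cells made was not tested. The order of the genes, and the sums and shares of KLF genes below, therefore rest on these lengths. In the untreated-labelled libraries Klf6 stood at 213, then came Klf7 at 21.9, Klf3 at 14.2, Klf13 at 13.9, Klf10 at 6.79, Egr2 at 5.61, Klf2 at 2.72, Egr1 at 1.24 and Klf4 at 0.681. Only the neighbours Klf3 and Klf13 overlapped there. In the Pam3CSK4-labelled libraries the order was Klf6 at 70.1, Klf10 at 11.5, Klf13 at 11.1, Klf2 at 5.95, Klf3 at 5.01, Egr2 at 3.05, Klf7 at 2.46, Klf4 at 2.44 and Egr1 at 0.359. Klf10 overlapped with Klf13, Klf2 with Klf3 and Klf7 with Klf4. Klf7, the next after Klf6 in the untreated-labelled libraries, thus ranked below Klf2 and level with Klf4 there. The 3SL-labelled libraries had Klf6 at 190, Klf7 at 20.97, Klf13 at 14.9, Klf3 at 13.7, Klf10 at 8.38, Egr2 at 4.37, Klf2 at 1.55, Egr1 at 0.926 and Klf4 at 0.608, with no neighbours overlapping.

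Summed over all 17 KLF genes, the level was 282 ± 1.88 CPM per kilobase (SD, n = 3) in the untreated-labelled, 118 ± 3.48 in the Pam3CSK4-labelled and 259 ± 5.26 in the 3SL-labelled libraries. Klf6 made up 75.8%, 59.5% and 73.2% of it. Klf7 made up 7.79%, 2.09% and 8.08%, and Klf2 0.964%, 5.03% and 0.599%. The mix of KLF transcripts in the Pam3CSK4-labelled libraries thus held less Klf6 and Klf7 and more Klf2, Klf10 (9.74% against 2.41% in the untreated-labelled libraries) and Klf13 (9.42% against 4.92%), although the CPM of Klf13 was lower there.

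**Figure D3:**
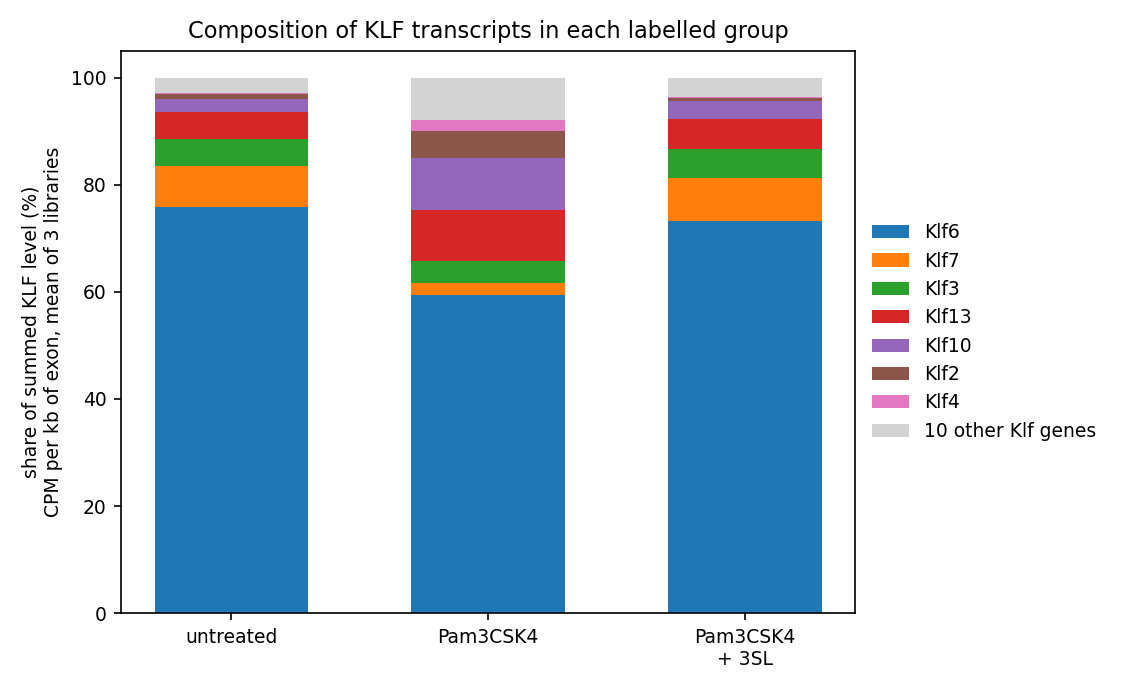
Share of each KLF gene in the summed level of 17 KLF genes (vertical axis in percent of CPM per kilobase of exon, mean of 3 libraries) in the 3 labelled groups. Klf6 takes 75.8%, 59.5% and 73.2%, and Klf10 and Klf2 widen from 2.41% and 0.964% in the untreated-labelled to 9.74% and 5.03% in the Pam3CSK4-labelled libraries. The shares rest on the length of all annotated exons of each gene.

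Of the 10 other KLF genes, 4 had enough counts to be tested. Klf11, a close relative of Klf10, rose 2.83-fold in the Pam3CSK4-labelled against the untreated-labelled libraries (1.77 ± 0.461 to 5.03 ± 0.521 CPM, edgeR quasi-likelihood adjusted p = 4.64e-07), and Klf9 rose 1.66-fold (adjusted p = 0.000335). Klf8 was lower (log2 change -0.53, adjusted p = 0.0133), a call that was lost at equal depth, without D2 and with libraries scaled by their totals alone. Klf16 was not called (log2 change 0.04, adjusted p = 0.752), and none of the 4 was called between the 3SL-labelled and the untreated-labelled libraries, by edgeR, by DESeq2 or at an unadjusted p under 0.05. Klf8 is the gene here that the naming rule did not choose. Of the SP factors, relatives with the same kind of zinc fingers, 4 of 9 were tested, and between the Pam3CSK4-labelled and untreated-labelled libraries Sp4 alone was called (1.37-fold higher, edgeR quasi-likelihood adjusted p = 0.00442). The count of SP factors called higher was 3 with libraries scaled by their totals alone.

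Around the EGR genes, the co-repressors Nab1 and Nab2 bind EGR proteins and limit their activity. Nab2 fell 2.12-fold in the Pam3CSK4-labelled against the untreated-labelled libraries (93.0 ± 1.22 to 43.9 ± 3.42 CPM, edgeR quasi-likelihood adjusted p = 1.27e-16) and Nab1 fell 1.64-fold (181 ± 1.19 to 110 ± 2.58 CPM, adjusted p = 1.18e-15). Neither was called between the 3SL-labelled and the untreated-labelled libraries (adjusted p = 0.963 and 0.837). Of the 10 genes of the arm from MEK kinases to serum response factor, which controls EGR genes through CArG boxes, 3 were called higher in the Pam3CSK4-labelled than in the untreated-labelled libraries and 4 lower. That share is near the 75.0% of all tested genes called in this comparison (39.0% higher, 35.9% lower), and 1 of the 10 was called with at least a 2-fold change, against 24.0% of all. Map2k1, an upstream kinase, fell 2.19-fold (298 ± 7.07 to 136 ± 2.95 CPM, adjusted p = 6.12e-21) and Srf, serum response factor itself, fell 1.43-fold (adjusted p = 1.91e-08). The actin-linked co-activator Mrtfb rose 1.72-fold (adjusted p = 2.17e-13) and the ETS partner Elk3 rose 1.29-fold (adjusted p = 6.95e-06). With libraries scaled by their totals alone 6 of the 10 were called higher.

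MEF2 factors, switched on by the kinases MEK5 and ERK5, are known to act on Klf2 and Klf4 in endothelium. Of the 7 genes of that arm, 6 were called higher and 1 lower in the Pam3CSK4-labelled against the untreated-labelled libraries, where 75.0% of all tested genes were called and 39.0% were called higher. Most of these changes were small: 1 of the 7 was called with at least a 2-fold change, against 24.0% of all tested genes. Mef2c rose 3.65-fold (25.9 ± 1.02 to 93.5 ± 1.80 CPM, edgeR quasi-likelihood adjusted p = 1.47e-21) and Mef2a rose 1.65-fold (278 ± 5.71 to 460.0 ± 26.3 CPM, adjusted p = 4.47e-15). Mef2d rose 1.20-fold (adjusted p = 9.98e-05) and the upstream kinase Map3k2 1.18-fold (adjusted p = 0.000526). The gene called lower was Mapk7, ERK5 itself (1.39-fold, adjusted p = 2.24e-07), named after its value was seen. Between the 3SL-labelled and the untreated-labelled libraries 1 of the 7 was called, Mef2d (1.20-fold higher, adjusted p = 0.00338), and the count was 0 without library B2.

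Among 16 co-repressors, acetyltransferases and ubiquitin ligases that act with or on KLF proteins, 5 were called higher and 8 lower in the Pam3CSK4-labelled against the untreated-labelled libraries. With libraries scaled by their totals alone this became 9 higher and 5 lower. The 13 calls are near the background of 75.0%, and 2 of the 16 genes were called with at least a 2-fold change, against 24.0% of all tested genes. Wwp1, a ubiquitin ligase of Klf2, rose 4.54-fold (93.1 ± 2.73 to 422 ± 19.7 CPM, edgeR quasi-likelihood adjusted p = 6.24e-26). Sap30, a subunit of the SIN3 co-repressor complex, fell 3.39-fold (127 ± 2.72 to 37.6 ± 1.82 CPM, adjusted p = 4.89e-22), while the scaffold Sin3a of that complex rose 1.37-fold (adjusted p = 2.15e-08). Between the 3SL-labelled and the untreated-labelled libraries Sap30 was 1.19-fold lower (adjusted p = 0.000428) and Sin3a 1.16-fold higher (adjusted p = 0.019), and the latter call was lost with DESeq2, at equal depth and without B2 or A2plus.

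Of 18 textbook KLF and EGR target genes, 16 were tested, and 6 were called higher and 10 lower in the Pam3CSK4-labelled against the untreated-labelled libraries, 9 of them by at least 2-fold. Over all tested genes 75.0% were called, and 24.0% by at least 2-fold. Ccl5, a chemokine, fell 99.3-fold (462 ± 27.5 to 4.71 ± 0.454 CPM, edgeR quasi-likelihood adjusted p = 9.47e-31), and Zc3h12a, a ribonuclease that degrades cytokine transcripts, fell 26.9-fold (257 ± 6.48 to 9.51 ± 0.711 CPM, adjusted p = 8.08e-31). Lgals3, which encodes galectin-3, rose 1.75-fold (2252 ± 75.2 to 3940 ± 93.2 CPM, adjusted p = 4.05e-19). Thbd and S1pr1, an anticoagulant receptor and a sphingosine phosphate receptor, are standard targets of Klf2 and were named after their values were seen. So were Cdkn1a and Cdkn1b of the same list, which fell 2.63-fold and 1.44-fold (edgeR quasi-likelihood adjusted p = 2.09e-22 and 4.82e-08). Thbd rose 4.45-fold (6.09 ± 0.159 to 26.9 ± 1.66 CPM, adjusted p = 2.37e-17) and S1pr1 rose 3.78-fold (29.7 ± 2.57 to 110 ± 3.67 CPM, adjusted p = 2.8e-21). Neither was called between the 3SL-labelled and the untreated-labelled libraries (adjusted p = 0.0806 and 0.098), with log2 changes of 0.37 and 0.20, while that of Klf2 was -0.87.

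The median log2 change between Pam3CSK4-labelled and untreated-labelled libraries was 0.38 over the other KLF genes, -0.90 over Nab1 and Nab2, 0.04 over the SP factors, -0.0014 over the serum response factor arm, 0.27 over the MEF2 arm, -0.09 over the co-repressors and ligases and -0.47 over the targets, beside 0.03 over all tested genes. Between the 3SL-labelled and the Pam3CSK4-labelled libraries, 1 of the 4 other KLF genes was called higher and 2 lower, and both NAB genes were called higher. Of the SP factors 1 was called lower (Sp4), of the serum response factor arm 4 higher and 3 lower, and of the MEF2 arm 1 higher and 4 lower. Of the co-repressors and ligases 8 were called higher and 5 lower, and of the targets 9 higher and 6 lower. Over all tested genes 71.5% were called there, 34.7% higher and 36.8% lower. The lists are small, and whether any of them departs from those shares was not tested. Scaled by library totals alone, that comparison gave 0 other KLF genes and 0 genes of the MEF2 arm called higher, and 3 SP factors, 5 genes of the serum response factor arm and 8 co-repressors and ligases called lower. EdgeR called 0 of the 10 genes of the serum response factor arm between the 3SL-labelled and the untreated-labelled libraries, as did DESeq2, and 1 had an unadjusted p under 0.05. Of the 16 targets 1 was called higher there and 4 lower, beside 3.83% and 5.11% of all tested genes. When scaled by library totals alone the counts were 3 and 2. Ccl5 and Lgals3 were among the latter, at 1.27-fold and 1.15-fold (edgeR quasi-likelihood adjusted p = 6.59e-06 and 4.57e-05).

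**Figure D4:**
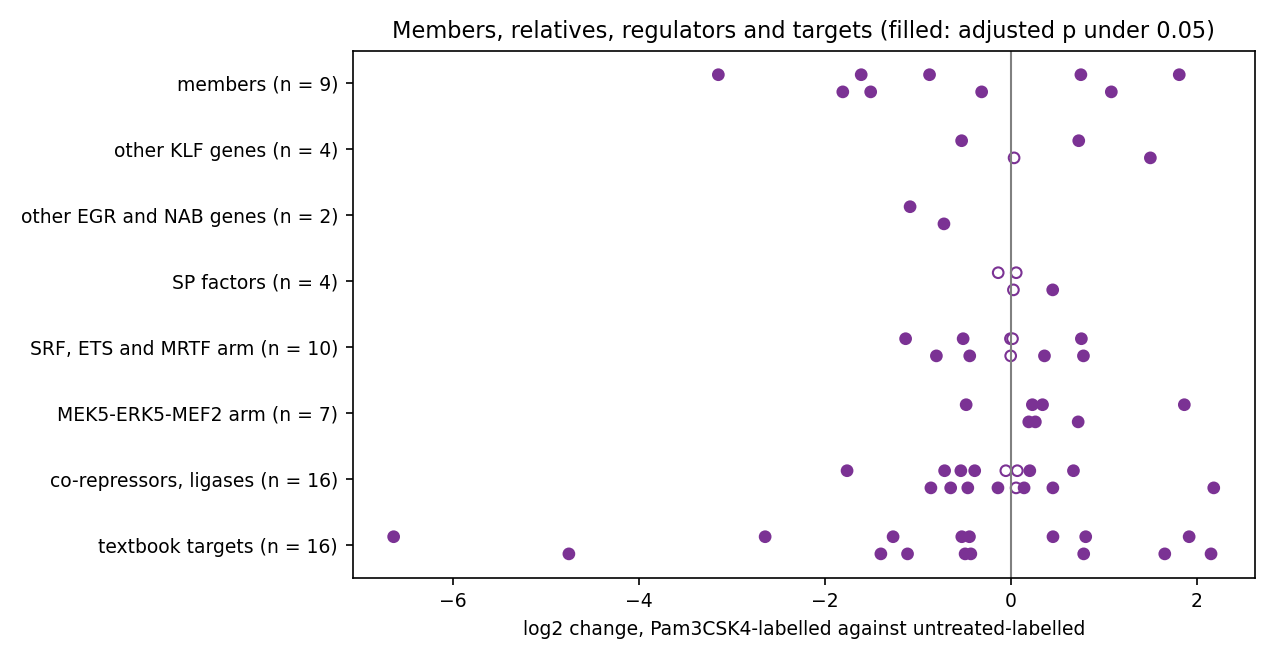
Log2 change between Pam3CSK4-labelled and untreated-labelled libraries (horizontal axis) of each tested gene, in rows for the members and 7 lists of relatives, regulators and targets, with filled points for an adjusted p under 0.05. The 9 members spread from -3.14 to 1.81, the 4 SP factors lie between -0.13 and 0.45, and the targets reach from -6.63 (Ccl5) to 2.15 (Thbd).

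For each member the tested genes nearest in profile over the 9 libraries were found. Nearness was the Euclidean distance between log2 CPM profiles centred on their means. Genes without a symbol, genes with Gm or Rik names, mitochondrial genes and the other members were left out of this search. The nearest to Klf7 were Jak2, a cytokine receptor kinase (distance 0.18), and Cflar, an inhibitor of caspase activation (0.19). Jak2 stood at 467, 49.9 and 439 CPM and Cflar at 753, 89.8 and 703 CPM in the untreated-labelled, Pam3CSK4-labelled and 3SL-labelled libraries. The nearest to Klf6 were Mitf, a transcription factor of pigment cells and osteoclasts (0.15), and Vps37c (0.16), and to Klf3 Skil, a repressor of SMAD signalling (0.21), and Fbxl5 (0.26). The nearest to Klf4 were Cdkn2c, a cell cycle inhibitor (0.33), and Tctn3 (0.33).

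The nearest to Klf2 were Cytip (0.70) and Rap2a (0.75), at larger distances than for any other member. Rap2a stood at 83.3, 219 and 64.9 CPM. For Klf10 they were Pqlc2 (0.16) and Dip2c (0.23), for Egr1 Usp53 (0.53) and C1rl (0.63), and for Egr2 Ppp2r5a, a phosphatase subunit (0.29), and Fam174a (0.29). The nearest to Klf13 were Csf1r, the receptor of the macrophage growth factor (0.07), which is also 1 of the macrophage markers above, and Cltc, the clathrin heavy chain (0.08). Csf1r stood at 1990, 1597 and 2130 CPM. Klf13 also moved least: the length of its own centred profile was 0.55, against 4.41 for Klf7.

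The 3′ UTRs of the members differed in the pentamer ATTTA, the core of AU-rich elements that shorten the life of many immediate-early and cytokine transcripts. In the GENCODE M21 transcript used for each gene, Klf7 had 18 in 6269 bases (2.87 per kilobase), Klf10 2.68 per kilobase, Egr2 2.49, Klf6 2.25, Klf3 1.87, Egr1 1.64, Klf2 1.35, Klf4 1.02 and Klf13 0.581. The median was 1.87 per kilobase over the members and 1.35 over the 10746 tested genes with a 3′ UTR of at least 100 bases. Klf7, at 77.5% in the ranking of all tested genes, had the highest density of the members, and Klf13, at 33.7%, the lowest.

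In the annotation, on GRCm38, Klf2 lies at chr8:72319033-72321656 (+), Klf3 at chr5:64803388-64832901 (+), Klf4 at chr4:55527143-55532466 (-), Klf6 at chr13:5861482-5870394 (+) and Klf7 at chr1:64029447-64122282 (-). Klf10 lies at chr15:38291463-38300706 (-), Klf13 at chr7:63886351-63938915 (-), Egr1 at chr18:34859823-34864984 (+) and Egr2 at chr10:67535475-67542188 (+). All 9 are protein-coding genes, and their exons cover from 1847 bases (Klf2) to 11243 bases (Klf3).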

How the data were processed

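The report covers 9 genes in the 9 macrophage libraries. The counts per gene were deposited by the authors as whole numbers in 1 table with 22001 gene rows, and 15 columns of other samples in it were not used here. Per the submitters' processing notes, HISAT2 2.1.0, Subread and featureCounts were named, without parameters. The same notes name hg38, although all 22001 identifiers are mouse, so the build behind the counts is not settled. For strand and annotation settings the sources used here say nothing.

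The tests used edgeR 4.0.16 (R 4.3.3): filterByExpr left 11469 genes, TMM factors scaled the libraries, and 1 quasi-likelihood model took in all 9 libraries, with a mean for each group. Benjamini-Hochberg adjustment ran over all 11469 genes, and 0.05 was the threshold. The procedure was also run on simulated counts with 200 changed genes. So few changed genes cannot show how the scaling fares where 75.0% of all tested genes were called. Levels are CPM on TMM-scaled library sizes. Intervals are the estimate ± 1.96 SE. Symbols and exons came from GENCODE M21 (GRCm38), which held 21909 of the identifiers, and promoter windows from RefSeq on GRCm38.p6.

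The alternatives were DESeq2 1.42.0, other scalings and filters, 2-group fits, thinning to 7472482 counts, a replicate block and leaving out each library. The members, gene lists and naming rule were chosen with earlier results of these data known. The rule named all 9 members, and from each gene list the 2 genes with the smallest p between the Pam3CSK4-labelled and untreated-labelled libraries and the 2 between the 3SL-labelled and untreated-labelled libraries. For each member it also named the 2 tested genes nearest in profile, and it took Tnf and Il1b to check the labels. No pattern known from those earlier results is given as independent support.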

Additional observations from a re-analysis of the deposited data

How the results depend on the processing

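The 27 member results (9 genes in 3 comparisons) were each recomputed under every alternative that applied, 441 values in all. Of these, 431 kept their side of the 0.05 threshold. A change of sign was counted only where the main or the alternative result was called. 8 lost the call, 1 gained it and 1 changed sign, and apart from that sign change all of them lay between the 3SL-labelled and the untreated-labelled libraries. Klf13 between Pam3CSK4-labelled and untreated-labelled libraries had a log2 change of 0.000394 with scaling to library totals alone (edgeR adjusted p = 0.994), a scaling under which the median of all tested genes moved to 0.34. Between the 3SL-labelled and untreated-labelled libraries, the number of members called higher was 2 with library totals alone. Without each library in turn it ranged from 0 to 1, the number called lower from 1 to 3, and the number called at least 2-fold from 0 to 1. With the library letter (A, B, C) as a replicate block, the edgeR adjusted p was 0.021 for Klf2, 0.000795 for Klf6, 0.0122 for Klf10 and 0.036 for Egr2, and the block changed no call of a member. Deviations from the group means over all tested genes correlated at -0.02, 0.04 and 0.01 for libraries sharing a letter. For libraries of different letters the correlations ran from -0.03 to 0.02. Values this small, from so few libraries, do not settle whether a letter stands for a shared culture or animal. No block could be fitted for the Pam3CSK4-labelled libraries, which carry another letter. Of 784 recomputed counts of genes from the lists, 38 moved by more than 1.5 times. The lowest counts were those of Klf4, Egr1 and Klf2, whose 3SL-labelled libraries held 51, 114 and 76 counts in all.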
